A study of Saccharomyces cerevisiae with 24 samples.

Results

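The 45 genes described here carry out meiosis and spore formation in the budding yeast Saccharomyces cerevisiae. They were chosen by gene symbol from a fixed list of meiotic regulators, recombination and synapsis proteins, and proteins that build the spore, and no measured value entered the choice. All 45 were on the array, each with 2 probes, among 4069 named genes in all, and REC8 was found under its older symbol SPO69.

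The study set strains evolved in the laboratory to withstand plant biomass hydrolysate, the liquor left when woody material is broken down to sugars, against reference strains named for a fluorescent protein. Total RNA of 8 adapted mutants was hybridised on 2-colour arrays, each mutant with its reference on the same array. The reference was YFP for PY-231 and DsRed for M1 and for the mutants whose names start with PR (PR-164, PR-338 and PR-438). It was GFP for those whose names start with PG (PG-132, PG-259 and PG-353). Each mutant had 3 arrays, called replicates 1, 2 and 3, and a replicate number is a slide that carries 8 arrays. All cultures, mutant and reference alike, carry 1 growth label that names glucose-free YNB minimal medium and hydrolysate at 1 g/mL. It is unclear from it if the RNA came from one of these media or from a mixture. The labels give no starvation or sporulation step, no ploidy, no mating type and no time of harvest, and they do not say whether a mutant is a single clone. How each reference relates to the ancestor of its mutants is not stated in the labels. Mutant RNA carried Cy5 on 2 of the slides, 1 and 3, and Cy3 on the remaining one, slide 2. Values are log2 ratios of mutant over reference, each array centred on its median, and on slide 2 that direction is likely but not stated.

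Budding yeast enters meiosis as a diploid that holds both mating types, when nitrogen and a fermentable carbon source run out. The transcription factor Ime1 then switches on early genes of recombination and synapsis, the factor Ndt80 switches on middle genes of the nuclear divisions and of the prospore membrane, and late genes build the spore wall. In growing cells these genes are held down, many of them by the repressor Ume6 at the URS1 promoter element, so their transcripts are known as scarce outside sporulation.

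The spots of these genes were close to background. The deposited ratios are quotients of whole numbers, and those numbers, read as the background-subtracted brightness of the 2 channels, had a median of 126 scanner units for the meiosis and sporulation genes against 1689 for all genes. The dimmer channel of a spot had a median of 79 units against 1075. Of the 45 genes, 43 lay among the dimmest 25% of genes, 44 lay under the median of all genes and 0 lay in the brightest 25%, and the median gene stood at percentile 2.65 of brightness. Brightness also depends on the probe and a common factor can shorten a quotient, so it is used here as a measure of signal over background and not as a transcript level. The arrays hold RNA of whole cultures, so few cells with much of a transcript and many cells with little of it cannot be told apart.

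The exceptions were few. SPR6, a sporulation gene whose product has no role known well enough to state, was the brightest at 1940 units (percentile 54.8). SPO14, the phospholipase D that the prospore membrane needs and that growing cells also make, had 1226 units (percentile 39.7). RED1, a protein of the meiotic chromosome axis, had 696 units (percentile 21.8), and SPO16, a partner of the synapsis proteins, had 552 units (percentile 15.6). The dimmest were MER1, a splicing activator of meiotic transcripts, at 25 units, CDA1, a chitin deacetylase of the spore wall, at 41.0 units, SPO11, the enzyme that cuts DNA to start recombination, at 48.8 units, and SPS100, a spore wall protein, at 53.2 units. The spots of the regulators had 206 units for IME1, 209 for IME2, 105 for IME4 and 133 for NDT80, all among the dimmest 25% of genes. A value at or below 0 means that 1 channel did not exceed its background. Such values made up 82 of 2159 spots of these genes (3.80%) against 0.492% of all named spots, 30 of the 45 genes had at least 1, and CDA1 had the most, 9.

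**Figure D1:**
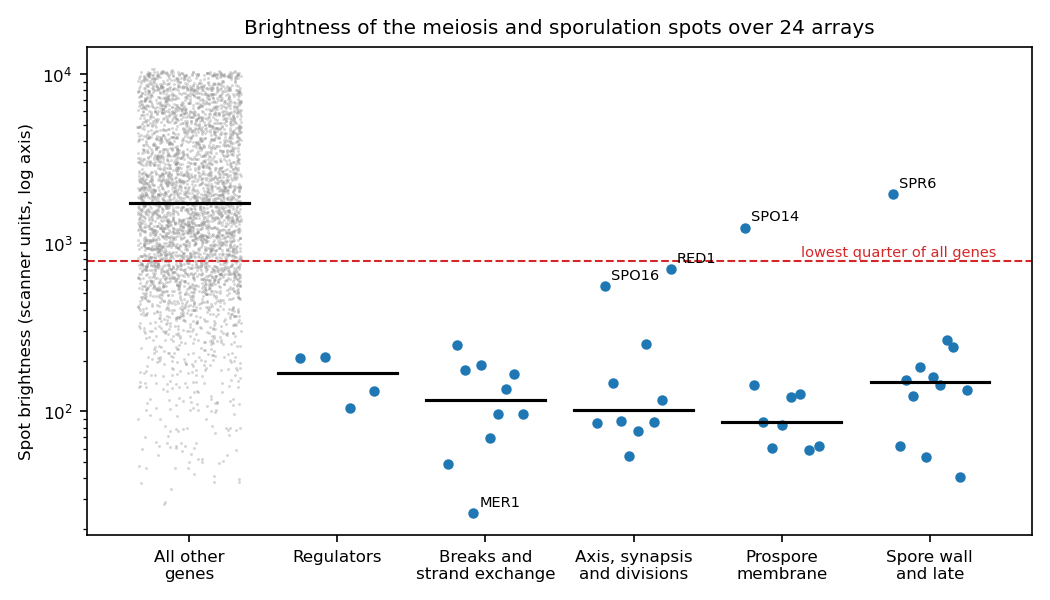
Spot brightness over 24 arrays in scanner units on a log axis, by role, with 1 point per gene and a black line at each group's median. The dashed line marks the brightness below which the dimmest 25% of all genes lie. SPR6 and SPO14 are the points above it, and MER1 is the lowest.

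The 2 probes of a gene also told less about each other than did those of all genes. Across genes within 1 array the correlation between the probes of a gene ranged from -0.01 to 0.93 for all genes, with a median of 0.72 over the 24 arrays, and from -0.25 to 0.54 with a median of 0.27 for the meiosis and sporulation genes. These correlations are descriptions over genes that share an array, and the lowest value for all genes came from PY-231 replicate 1. The median gap between the 2 probes was 0.43 on the log2 scale for these genes and 0.18 for all genes, taking the median over arrays. The residual SD of the log2 ratio, which is what remains after the mutant and dye terms, had a median of 0.59 for these genes, 0.38 for all genes and 0.40 for the dimmest 25% of genes, and 37 of the 45 exceeded the median of all genes. The SE of a mutant's fitted log2 ratio was accordingly 0.15 to 0.88 with a median of 0.32, against 0.22 for all genes. SPO14 had the smallest residual SD of the 45, at 0.24, SPR6 had 0.27, and DIT2 had the largest at 1.69.

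**Figure D2:**
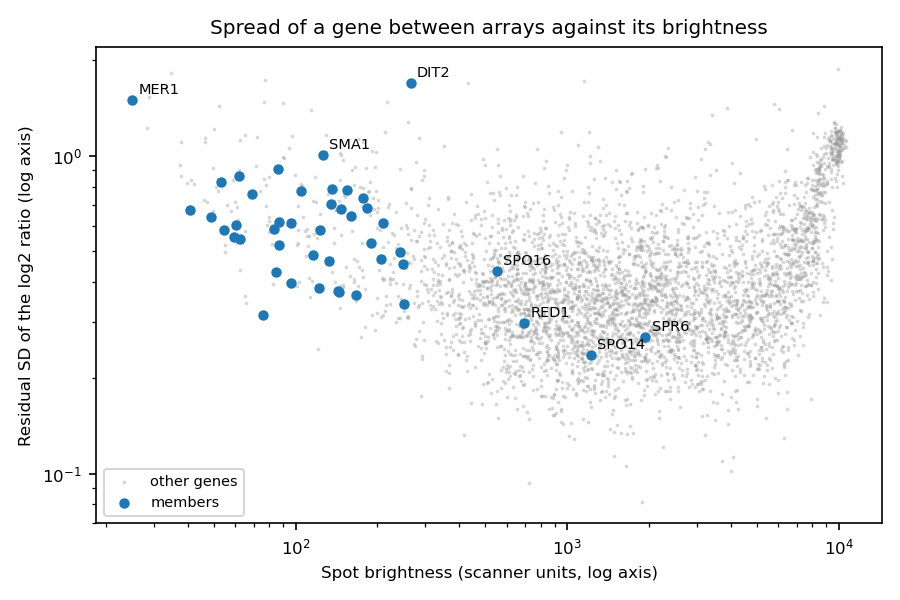
Residual SD of the log2 ratio between arrays against spot brightness, both on log axes, with 1 point per gene. Most meiosis and sporulation genes (coloured points) sit at the dim end with a median residual SD of 0.59, against 0.38 for all genes.

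Few changes passed the test. A gene was called at a Benjamini-Hochberg adjusted p under 0.05 over all 4069 genes in limma's moderated test. Of the 360 pairs of a gene and a mutant, 2 (0.556%) were called, both in PR-164, and over all genes and mutants 59 of 32552 pairs (0.181%) were. Without adjustment 30 pairs (8.33%) had p under 0.05, against 9.94% of all pairs. The fitted log2 ratio lay within 0.5 of 0 in 300 pairs (83.3%) against 86.4% of all, and beyond 1 in 12 pairs (3.33%) against 2.94%. The sign was the same on all 3 arrays in 83 of 356 pairs (23.3%) against 24.9%. Apart from the called share, which rests on 2 pairs, these shares were near those of all genes. The 95% interval lay wholly between -1 and 1 in 212 of the 360 pairs, so for these a change beyond 2-fold was outside the interval, and for the others the data do not bound the change that closely. The intervals take arrays as independent after the mutant and dye terms and leave out values at or below 0, so they can be too narrow. The same share over all genes is not given here.

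By mutant, the counts of called genes were as follows. PY-231 had 0 of 45 called and 2 at an unadjusted p under 0.05 (0% and 2.53% of all genes). PR-438 had 0 and 8 (0.295% and 13.3%), PR-338 had 0 and 3 (0.123% and 10.7%), and PR-164 had 2 and 4 (0.492% and 10.7%). M1 had 0 and 3 (0.246% and 14.3%), PG-259 had 0 and 0 (0.0492% and 8.77%), PG-353 had 0 and 4 (0.0246% and 6.34%), and PG-132 had 0 and 6 (0.221% and 12.9%). In the mean of the 8 mutants 1 was called and 6 had an unadjusted p under 0.05, against 13.3% and 30% of all genes. The moderated F test for a difference among the 4 mutants of the DsRed reference called 0 and left 5 at an unadjusted p under 0.05 (0% and 5.55% of all genes), namely HOP2, MEK1, SMA2, SPO13 and SPS18. Among the 3 mutants of the GFP reference it called 0 and left 3 (0% and 1.01%), namely PCH2, SSP1 and ZIP2.

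**Figure D3:**
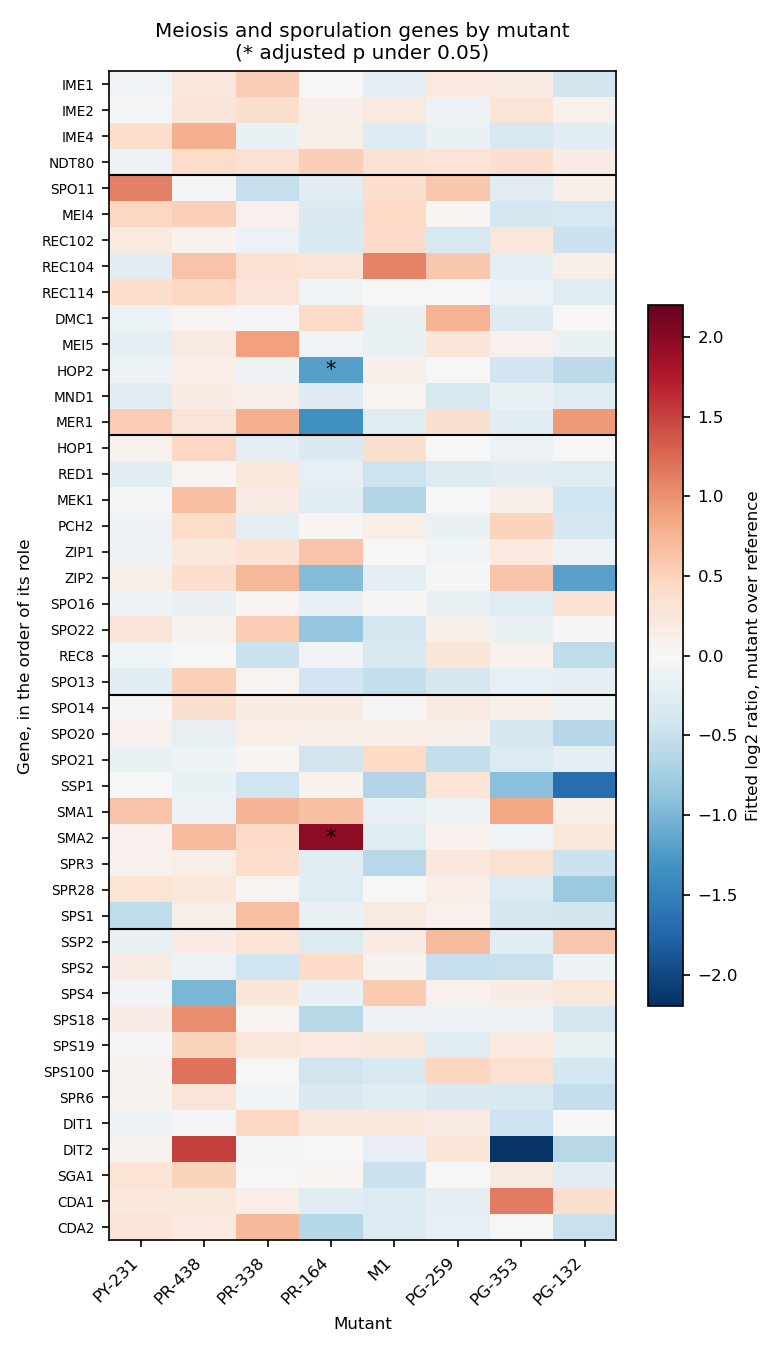
Fitted log2 ratio of mutant over reference for the 45 genes (rows, in the order of their roles, with lines between the roles) in the 8 mutants (columns). Red is above 0 and blue below, and the asterisks mark SMA2 and HOP2 in PR-164, the 2 pairs with an adjusted p under 0.05.

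The regulators showed no called change in any mutant. Over the 4 genes and 8 mutants, 29 of 32 fitted ratios lay within 0.5 of 0 and 0 lay beyond 1, from -0.40 for IME1 in PG-132 to 0.78 for IME4 in PR-438. For IME1, the master activator of meiotic entry, the fitted ratio was -0.09 ± 0.26 (SE, n = 3 arrays unless stated) in PY-231, 0.25 ± 0.32 on 2 arrays in PR-438, 0.55 ± 0.26 in PR-338, 0.01 ± 0.26 in PR-164, -0.21 ± 0.26 in M1, 0.17 ± 0.26 in PG-353, 0.21 ± 0.26 in PG-259 and, lowest, -0.40 ± 0.26 in PG-132. In PR-338, where it was highest, the arrays gave 0.09, 0.33 and 1.13, and in PG-132, where it was lowest, -1.46, 0.28 and -0.12. The 2 sets overlap, and the 95% intervals of all 8 mutants held 0. The -1.46 in PG-132 was the mean of probes at -3.16 and 0.24. PR-438 replicate 1 gave no value for IME1, since both spots were at or below 0.

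IME2, the protein kinase that carries meiosis forward behind Ime1, ran from -0.13 ± 0.33 in PG-259 to 0.36 ± 0.33 in PR-338. Its arrays in PR-338 were -0.35, 0.29 and 1.17, and in PG-259 they were -0.07, 0.32 and -0.62. Only PG-353 had it above 0 on all 3 arrays, at 0.16, 0.0027 and 0.79. In PR-164 its replicates 1 and 3 lay at -0.94 and 1.28, so the arrays of 1 mutant differed by more than any 2 mutants did.

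IME4, the mRNA methyltransferase of meiotic entry, split by slide. It lay above 0 on all 8 arrays of slide 2, from 0.25 to 1.55, and below 0 on 12 of the 16 arrays of slides 1 and 3, which reached -1.94. In PR-164, for example, the 3 arrays gave -0.86, 1.55 and -0.94, and in PG-353 they gave -1.94, 1.05 and -0.83. Its fitted ratios ran from -0.35 ± 0.41 in PG-353 to 0.78 ± 0.41 in PR-438 (adjusted p = 0.431). The IME4 locus is also known to make an antisense transcript in haploid cells, and the sources used here do not state whether the probes tell the strands apart. The mutant was in Cy3 on slide 2 alone, so dye, slide and direction of the ratio cannot be told apart for such genes. Of the 45 genes, 10 (22.2%) had 1 sign on all 8 arrays of slide 2, 7 above and 3 below 0, against 19.5% of all genes.

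NDT80, the activator of middle meiotic genes, lay above 0 in 7 of the 8 mutants and on 17 of 24 arrays. Its fitted ratios were -0.11 ± 0.26 in PY-231, 0.40 in PR-438, 0.33 in PR-338, 0.54 in PR-164, 0.33 in M1, 0.38 in PG-353, 0.30 in PG-259 and 0.16 in PG-132, each with an SE of 0.26. The arrays of PR-164 gave 0.60, 0.05 and 1.22 and those of PR-438 gave 0.65, 0.39 and 0.42, all above 0, whereas M1 gave 0.65, -0.46 and 1.03. In the mean of the 8 mutants NDT80 stood at 0.29 ± 0.10 with an adjusted p of 0.0531. With the replicate number, which is a slide, as a block it stood at 0.37 with an adjusted p of 0.00872. That block moved the count of called genes in the mean from 1 to 5 of 45, namely HOP2, NDT80, RED1, SMA2 and SPR6, and over all genes from 540 to 876. The 8 mutants share 3 references, so their values are not independent.

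**Figure D4:**
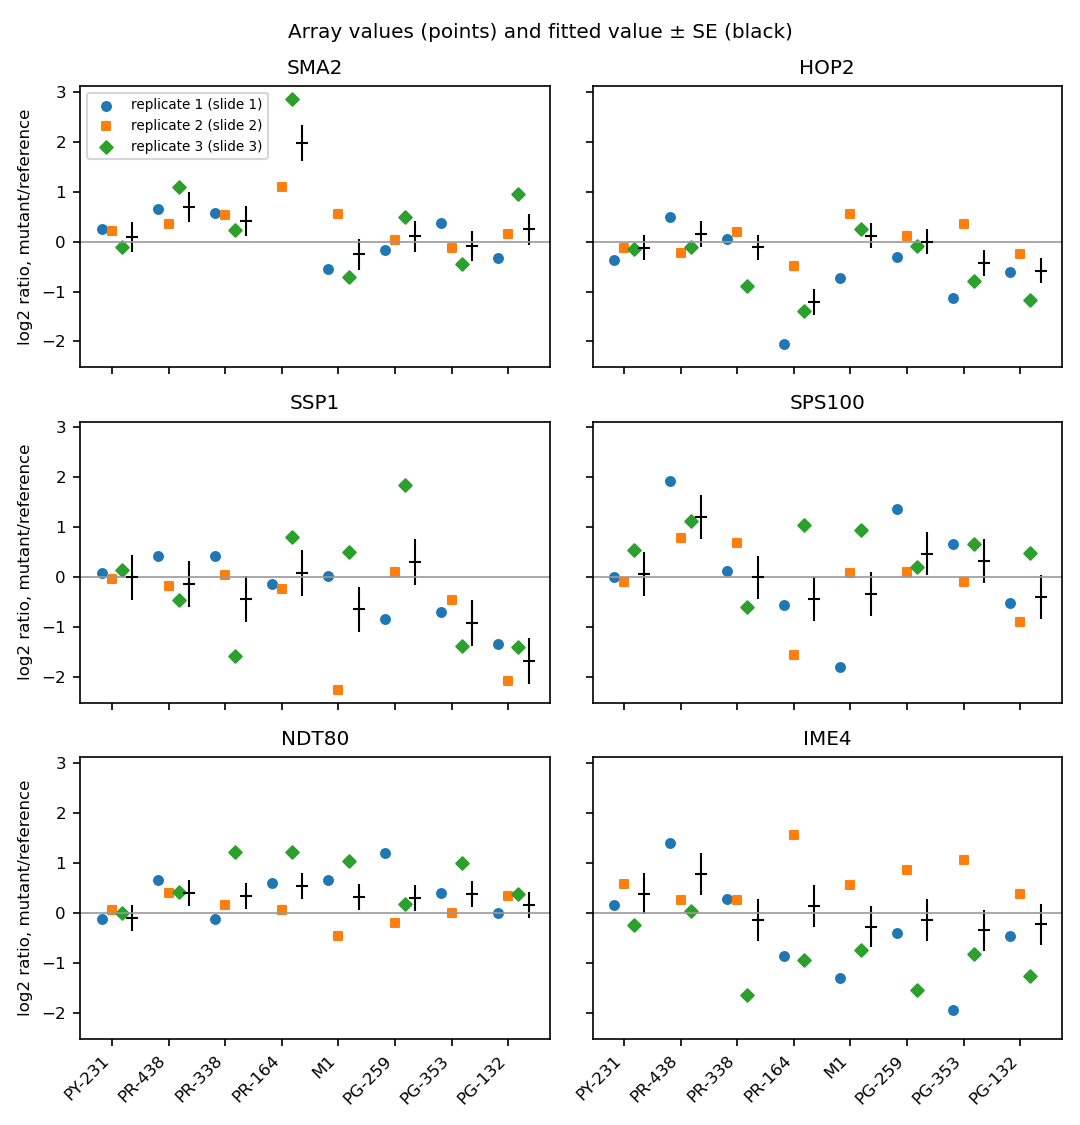
Log2 ratio of mutant over reference on each array (points, by replicate) and the fitted value ± SE (black) for 6 genes in the 8 mutants. SMA2 has 2 points in PR-164, HOP2 is below 0 on all 3 arrays there, and the points of IME4 on replicate 2 all lie above 0.

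Among the 10 genes of DNA breaks and strand exchange, 65 of 80 fitted ratios lay within 0.5 of 0, 4 lay beyond 1 and 1 was called. That one was HOP2 in PR-164. Hop2 works with Mnd1 and the recombinase Dmc1 in matching homologous chromosomes, and its gene gave -2.05, -0.48 and -1.38 on the 3 arrays of PR-164, all below 0. It fell by 1.21 ± 0.25 on the log2 scale, a fold of 0.432 (adjusted p = 0.0372). Its probes agreed on slide 3, at -1.37 and -1.39, but gave -2.89 and -1.21 on slide 1 and -1.11 and 0.14 on slide 2. The spots of probe 1 held 26 over 471 units on slide 1, 472 over 227 on slide 2 and 61 over 259 on slide 3. Every spot of both HOP2 probes had a ratio above 0 in this mutant, which alone does not show that both channels exceeded background. The call was lost without slide 1 (-0.93, adjusted p = 0.215) and without slide 3 (-1.27, adjusted p = 0.235), and it was kept after a loess on brightness (-1.30, adjusted p = 0.0451) but lost after quantile normalization (-1.21, adjusted p = 0.355). It was also lost with slide 2 turned, with arrays of the same reference only, without a dye term, with values at or below 0 set to the lowest ratio and with the second probe only, at adjusted p-values of 0.0748, 0.11, 0.459, 0.32 and 0.228. HOP2 stood below 0 in PR-164 under each of these. In the other mutants HOP2 ran from -0.58 ± 0.25 in PG-132 (adjusted p = 0.349) to 0.15 ± 0.25 in PR-438. MND1, whose product is the partner of Hop2, stood at -0.28 ± 0.23 in PR-164 and DMC1 at 0.42 ± 0.39, both short of the threshold (adjusted p = 0.73 and 0.771).

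SPO11 and its partners gave no call. In PY-231 SPO11 had the fitted ratio 1.10 ± 0.35 (adjusted p = 0.998), on arrays at 1.10, -0.19 and 2.69. The probes disagreed on the outer arrays: on slide 3 they held 19 over 2 units and 4 over 19 units, which is 5.43 and -0.06 on the log2 scale. REC104, an accessory factor of the break machinery, stood at 1.09 ± 0.42 in M1 (adjusted p = 0.243) on arrays at -0.46, 0.54 and 3.27. Its highest value came from 1 probe with 103 over 11 units, the other being below 0, and without M1 replicate 1 it passed at 1.90 (adjusted p = 0.0396). REC104 lay above 0 on all 3 arrays of PR-438, PR-338, PR-164 and PG-259, at 0.62, 0.32, 0.29 and 0.59 in the fit, each with an SE of 0.42. REC114, another accessory factor, was above 0 on all arrays of PY-231 at 0.63, 0.34 and 0.04, with 0.38 ± 0.21 in the fit, and MEI4 was above 0 on all arrays of M1 at 0.0044, 0.53 and 0.75, with 0.44 ± 0.29. MEI5, which helps load Dmc1, reached 0.90 ± 0.41 in PR-338 on arrays at 0.13, -0.05 and 2.49. MER1, the dimmest of the 45, ran from -1.35 ± 0.78 in PR-164 to 0.93 ± 0.78 in PG-132. The low end rested on replicate 1, at -4.54 from a spot of 2 over 113 units, while the other arrays gave -0.03 and 0.36. In PR-338 MER1 was above 0 on all 3 arrays at 0.19, 0.63 and 1.38 (0.78 ± 0.78, adjusted p = 0.83).

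The 10 genes of the chromosome axis, synapsis and the divisions had 0 called, 68 of 80 fitted ratios within 0.5 of 0 and 1 beyond 1. RED1 was the best measured of them, with an SE of 0.18 in every mutant. It gave -1.47, 0.29 and -0.51 in M1 (-0.45 ± 0.18, adjusted p = 0.267) and 0.09, 0.0045 and -0.31 in PR-438 (0.04 ± 0.18), and it lay below 0 on 14 of the 16 arrays of slides 1 and 3 but above 0 on 6 of 8 on slide 2. SPO16 had the same split, below 0 on 15 of 16 and above 0 on 6 of 8. ZIP1, the central strand of the synaptonemal complex, was above 0 on all arrays of PR-164, at 0.28, 0.56 and 1.12 (0.63 ± 0.20, adjusted p = 0.173). In the same mutant ZIP2, which starts assembly of that complex, had probe means below 0, at -0.10, -1.08 and -1.76 (-0.96 ± 0.48, adjusted p = 0.512). So had SPO22, another protein of that assembly, at -0.79, -1.11 and -0.74 (-0.86 ± 0.37, adjusted p = 0.4). The probes disagreed, with ZIP2 at -0.26, 0.26 and -1.06 for 1 and 0.06, -2.42 and -2.46 for the other. Those of SPO22 gave -1.38, 0.31 and 0.09, and -0.21, -2.53 and -1.57. In PG-353 the probe means of ZIP2 were above 0 on all arrays, at 0.23, 0.03 and 1.54 (0.62 ± 0.48). The probes of ZIP2 gave -0.04, 0.51 and 0.43 there, and 0.50, -0.45 and 2.65. In PG-132 it had -0.66, 0.25 and -3.23 (-1.19 ± 0.48, adjusted p = 0.312), where the lowest array rested on spots of 4 over 27 and 1 over 226 units. PCH2, an ATPase that remodels the axis protein Hop1, was above 0 on the arrays of PG-353 at 0.14, 0.64 and 0.81 (0.49 ± 0.19, adjusted p = 0.745). REC8, the meiotic cohesin subunit, was below 0 on those of PR-338 at -0.21, -0.18 and -0.92 (-0.47 ± 0.27, adjusted p = 0.552). SPO13, a regulator of the first meiotic division, was below 0 on all arrays of PY-231 (-0.33, -0.21 and -0.08) and of M1 (-0.87, -0.18 and -0.38), with -0.26 ± 0.24 and -0.52 ± 0.24 in the fit (adjusted p = 0.998 and 0.335). It was also below 0 on all arrays of PR-164 (-0.41 ± 0.24) and of PG-132 (-0.21 ± 0.24). MEK1, the kinase of the axis, ran from -0.65 ± 0.32 in M1 to 0.66 ± 0.32 in PR-438, and HOP1 lay between -0.32 and 0.45.

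Among the 9 genes of the prospore membrane, the double membrane that grows around each haploid nucleus, 57 of 72 fitted ratios lay within 0.5 of 0, 2 lay beyond 1 and 1 was called. SMA2, a membrane protein of prospore assembly, gave 1.08 and 2.86 on replicates 2 and 3 of PR-164 and no value on replicate 1. The fit on those 2 arrays gave 1.97 ± 0.37, which passed the threshold (adjusted p = 0.0295). Of its 6 spots in PR-164, 3 were at or below 0 and left out. The other 3 held 11 over 2, 19 over 2 and 39 over 11 units in lowest terms, so the measured units can be higher. With so many spots left out, neither the size nor the direction of the ratio is bounded. When values at or below 0 were set to the lowest ratio of the array instead of being left out, SMA2 stood at -2.37 (adjusted p = 0.48), and after a loess on brightness at 1.75 (adjusted p = 0.0581). It was not called without slide 1 (1.97, adjusted p = 0.184) or slide 3 (1.02, adjusted p = 0.497). In the mean of the 8 mutants SMA2 was the 1 gene of the 45 that passed, at 0.40 ± 0.12 (adjusted p = 0.0291), above 0 in 6 of the mutants and on 16 of 23 arrays. The mean includes the PR-164 value of 1.97, the highest of the 8 mutants. That call in the mean was lost without slide 1 (0.44, adjusted p = 0.0747) and without slide 3 (0.28, adjusted p = 0.0801). With low values set as above the mean turned to -0.54. The call was also lost with slide 2 turned and with the second probe only, and was kept under 9 of 14 alternatives. In PR-438 SMA2 was at 0.65, 0.36 and 1.10 (0.69 ± 0.30, adjusted p = 0.323) and in PR-338 at 0.56, 0.52 and 0.22 (0.42 ± 0.30), above 0 on each of these arrays, and in M1 at -0.55, 0.54 and -0.72 (-0.26 ± 0.30).

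SSP1, the coat at the leading edge of the prospore membrane, had the lowest value of this group. It gave -1.34, -2.09 and -1.40 on the arrays of PG-132, all below 0, and -1.68 ± 0.46 in the fit (adjusted p = 0.144). The low values came from 1 of its probes, which gave -2.73, -3.82 and -3.00, with spots of 17 over 179, 23 over 59 and 3 over 100 units, while the other gave 0.05, -0.35 and 0.19. In PG-353 the probe means of SSP1 were below 0 on all arrays, at -0.71, -0.46 and -1.38 (-0.92 ± 0.46, adjusted p = 0.81). The probe that was low in PG-132 gave 0.28, -0.43 and -3.04 in PG-353, and the other -1.69, -0.49 and 0.29. In PG-259, of the same reference, SSP1 was at -0.84, 0.10 and 1.85 (0.30 ± 0.46). SPO20, the membrane fusion protein of the prospore membrane, was below 0 on all arrays of PG-132, at -0.70, -0.26 and -1.12 (-0.63 ± 0.22, adjusted p = 0.228), and SPR28, a sporulation septin, was below 0 there on replicates 1 and 3 and at 0.12 on replicate 2 (-0.81 ± 0.32, adjusted p = 0.3). SPR3, the other septin, was below 0 on the arrays of M1 at -0.10, -1.39 and -0.10 (-0.61 ± 0.33). SPO21, which forms the plaque on the spindle pole body where the membrane starts, was above 0 on the arrays of M1 at 0.03, 0.55 and 0.78 (0.45 ± 0.29) and below 0 on those of PG-259 at -0.39, -0.17 and -0.99 (-0.52 ± 0.29). SMA1, another gene of prospore membrane assembly, had probe means above 0 on the arrays of PY-231 at 0.11, 0.16 and 1.20 and of PR-338 at 0.30, 0.63 and 0.89. The SEs were 0.53 for fitted values of 0.63 and 0.74. The probes of SMA1 disagreed in PY-231, with 0.38, 0.17 and 3.34 for 1 and -0.16, 0.16 and -0.94 for the other. In PR-338 they gave 0.67, 0.58 and 1.07, and -0.08, 0.67 and 0.72. SPS1, a protein kinase of late sporulation, had probe means below 0 on the arrays of PY-231 at -0.39, -0.34 and -0.61 (-0.55 ± 0.22, adjusted p = 0.998). It stood at 0.66 ± 0.22 in PR-338 (adjusted p = 0.224). Its probes lay apart on replicate 3, at 0.42 and -1.63 in PY-231 and at 0.16 and 3.29 in PR-338. SPO14 had the narrowest intervals of all, with fitted ratios between -0.11 in PG-132 and 0.36 in PR-438 and an SE of 0.15.

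The 12 genes of the spore wall and late sporulation had 0 called, 81 of 96 fitted ratios within 0.5 of 0 and 5 beyond 1. SPS100, a protein that matures the spore wall, gave 1.93, 0.78 and 1.13 on the arrays of PR-438, all above 0, and 1.20 ± 0.44 in the fit (adjusted p = 0.231). Both its probes lay above 0 on each of these arrays, at 1.51, 0.70 and 1.03 and at 2.35, 0.87 and 1.23, and the spots held 175 over 139 and 106 over 47 units on slide 1. SPS18, a zinc finger protein of sporulation, gave 1.77, 0.14 and 1.24 there (1.03 ± 0.32, adjusted p = 0.151), with 1 probe at 2.69, 0.34 and 2.2 and the other at 0.84, -0.07 and 0.27. Its divergent neighbour SPS19, a peroxisomal reductase of fatty acid breakdown that shares the intergenic region on chromosome XIV, gave 0.72, 0.42 and 0.15 (0.49 ± 0.37, adjusted p = 0.582). SPS4, a gene of middle to late sporulation, went the other way in PR-438, at -1.38, -0.80 and -0.85 (-1.0 ± 0.42, adjusted p = 0.3), and both its probes were below 0 on each array. In PG-259 SPS100 was above 0 on the 3 arrays at 1.36, 0.10 and 0.21 (0.47 ± 0.44), and in PR-164 it had -0.56, -1.56 and 1.04.

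DIT1 and DIT2, neighbouring genes that make the dityrosine of the outer spore wall, had unlike values. DIT2 held the lowest fitted ratio of all 360 pairs, -2.16 ± 0.88 in PG-353 (adjusted p = 0.759), and the highest of the spore wall genes, 1.5 ± 0.88 in PR-438 (adjusted p = 0.478). Each rested on replicate 1 of its mutant. In PG-353 that array gave -6.07 from a spot of 1 over 132 units, the other probe being below 0, against 0.29 and -1.36 on the other arrays. In PR-438 it gave 4.51 from probes at 0.56 and 8.47, the latter a spot of 157 over 1 units, against -0.01 and -0.65. DIT1 was below 0 on all arrays of PG-353, at -0.28, -0.67 and -0.25 (-0.46 ± 0.21, adjusted p = 0.778), and stood at -0.02 ± 0.21 in PR-438. CDA1 had 1.14 ± 0.44 in PG-353 on 2 arrays, 1.85 and 0.42 (adjusted p = 0.745). CDA2, the other chitin deacetylase, was above 0 on all 8 arrays of slide 2, from 0.24 to 0.90, and below 0 on 12 of 16 on slides 1 and 3. SPR6, the brightest of the 45, gave -0.53, -0.32 and -0.92 in PG-132 (-0.52 ± 0.17, adjusted p = 0.19) and -0.43, -0.14 and -0.61 in PG-259 (-0.32 ± 0.17, adjusted p = 0.647), below 0 on each of these arrays. SGA1, the glucoamylase that breaks down glycogen in sporulation, lay between -0.47 and 0.49, and SSP2, which acts in spore wall assembly, between -0.31 and 0.70.

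As a group the 45 genes stood near 0 in most mutants. Their median fitted ratio was 0.03 in PY-231, 0.15 in PR-338, 0.01 in PG-259, -0.14 in PG-353, -0.15 in PR-164 and 0.02 in the mean of the 8 mutants. In PR-438 it was 0.24, with 36 of 45 above 0 against 48.3% of all genes, and 15 of 44 were above 0 on all 3 arrays against 20.8%. In PG-132 it was -0.23, with 14 of 45 above 0 against 42.9%, and 0 were above and 9 below 0 on all 3 arrays, against 11.7% and 13.2%. The numbers above 0 were 23 in PY-231, 31 in PR-338, 17 in PR-164, 21 in M1, 24 in PG-259 and 18 in PG-353, against 48.3%, 54.3%, 46.5%, 46.4%, 46.4% and 45.3% of all genes. The dimmest 25% of all genes had a median of 0.11 in PR-438, -0.01 in PG-132 and 0.07 in PR-164. After a loess of the log2 ratio on brightness within each array the median of the 45 genes was 0.02 in PR-438, -0.14 in PG-132 and -0.21 in PR-164. The part of brightness in these medians and in single genes' values was not tested.

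These medians differed between the arrays of a mutant. In PR-438 the 3 arrays had medians of 0.42, 0.08 and 0.15, and on replicate 1 the genes above 0 were 39 of 44. In PR-164 they had -0.48, 0.15 and 0.11, and on replicate 1 the genes above 0 were 8 of 44. In PG-132 they had -0.28, 0.12 and -0.25. On slide 2 the medians of all 8 arrays lay between -0.0043 and 0.20, on slide 1 between -0.48 and 0.42 and on slide 3 between -0.25 and 0.18. The scatter among the 45 genes within an array was also narrower on slide 2, with an SD of 0.31 to 0.65 against 0.33 to 1.10 on slides 1 and 3. It was wider than that of all genes on 0 of 8 arrays of slide 2 and on 13 of 16 arrays of slides 1 and 3. Probe pairs lay closer on slide 2 for these genes, with a median gap of 0.29 against 0.49 on slides 1 and 3, and for all genes, with 0.15 against 0.23.

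**Figure D5:**
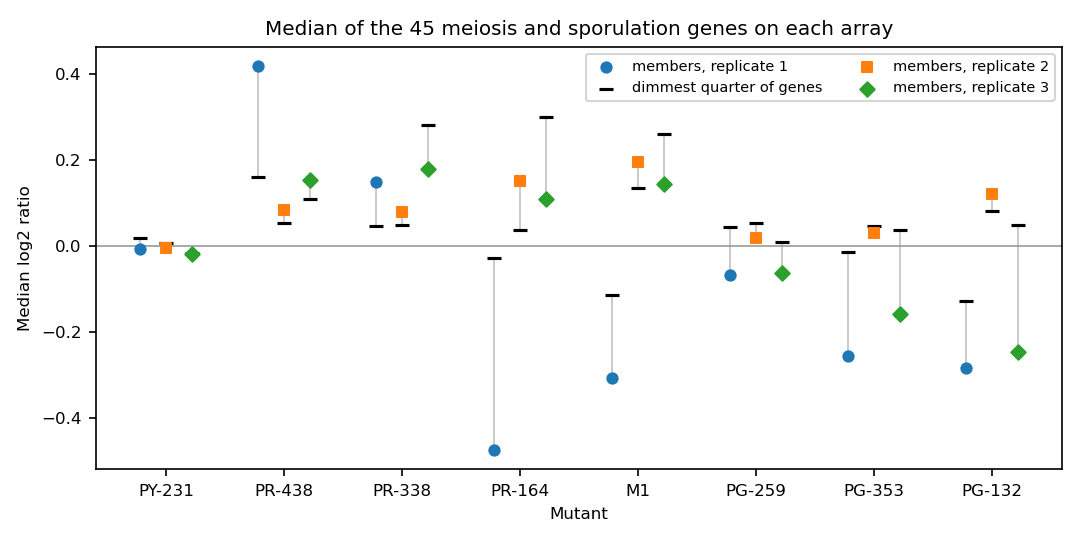
Median log2 ratio of the 45 genes on each array (coloured points, by replicate) and of the dimmest 25% of all genes on the same array (black bars), for the 8 mutants. The widest gap is on PR-164 replicate 1, where the 45 genes stand at -0.48 and the dim genes at -0.03, and PR-438 replicate 1 is the highest at 0.42.

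By position, 7 of the 45 genes are on chromosome VIII, 6 on IV, 5 on VII and the rest on 10 other chromosomes in the R64 gene catalogue. The 7 on chromosome VIII had a median of 0.40 in PR-438 with 4 above 0, and the other 38 had 0.24 with 32 above 0. SPO22 and HOP1, adjacent on chromosome IX, stood at -0.86 and -0.32 in PR-164 and at 0.56 and -0.22 in PR-338.

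Of a list of further genes of meiosis and sporulation outside the 45, 70 were on the array. They were brighter, with a median percentile of 17.4, and 47 lay among the dimmest 25% of genes. In the 8 single mutants 0 of the 70 were called, with 0 to 10 at an unadjusted p under 0.05. The 10 were in M1, where 14.3% of all genes had such a p. In the mean of the 8 mutants, where 13.3% of all genes were called, 1 of the 70 was, MSH5, a protein that stabilises meiotic crossovers, at 0.17 ± 0.05 (adjusted p = 0.0434). Their medians lay between -0.03 in PG-132 and 0.12 in PR-438.

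Meiosis needs both mating types in 1 cell, so the mating markers are given beside these values. The 12 genes typical of haploid cells had a median brightness percentile of 56.5, with 10 above the dimmest 25%, and included RME1, the haploid repressor of IME1, at percentile 52.1. The 4 alpha-cell genes had a median of 55.3 and the 7 a-cell genes 3.69. In M1 the a-cell genes had a median log2 ratio of 2.62 and the alpha-cell genes -3.39, while the 45 meiosis and sporulation genes had -0.0038 and the haploid genes 0.05. The alpha-cell genes also had medians below 0 in the other mutants of the DsRed reference, at -0.88 in PR-438, -0.98 in PR-338 and -0.75 in PR-164, and lay between -0.25 and 0.43 in the mutants of the other references. Outside M1 the a-cell genes had medians between -0.26 and 0.26 and the haploid genes between -0.13 and 0.09. These brightness values pool the mutant and its reference, so they do not give the state of each strain.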

How the data were processed

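The deposited values are linear ratios of the 2 channels for 15744 probes on 24 arrays. That they are background-subtracted and not scaled was read from the values. Only the GenePix origin of the authors' values is named, per the labels, and their scaling and filters are not stated there. Probes with 1 symbol (8152) gave 4069 genes, named through the R64 gene catalogue (129 symbols by a synonym, 4 unmatched). The other 7592 probes were not analysed here.

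Values at or below 0 were left out, log2 ratios were centred on the median of each array's named probes, and the probes of a gene were averaged. The share of values written as whole quotients (denominator up to 10000, tolerance 6e-10) was 82.7% to 100% of an array's spots and 99.2% for the 45 genes. These gave the brightness as the geometric mean of both numbers. For the rest the brightness is a lower bound.

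One limma fit (limma 3.58.1, R 4.3.3, data.table version 1.17.8, lmFit and eBayes) over 24 arrays had a term per mutant and a dye term, with Benjamini-Hochberg adjustment over all genes. Tables and plots were made with matplotlib 3.10.9, numpy 2.4.6 and pandas 2.3.3 under Python 3.11.15. Where a reference is set to 0, its own spread between cultures is not counted, and the dye term also takes what slide 2 shares out of the residuals. Array medians were 2.41 to 5.50 on slide 2 and 0.22 to 1.53 on the others, which is the basis of the direction. In that direction, arrays of 1 mutant correlated at a median of -0.30 (-0.62 to 0.235) for slide 2 with slides 1 and 3. For slide 1 with slide 3 the median was 0.23 (0.03 to 0.48). For the meiosis and sporulation genes alone these medians were -0.14 and 0.17. With slide means subtracted, all pairs of arrays of 1 mutant had a median of -0.035 (-0.47 to 0.36). The cause was not tested. The fit was also run on simulated data, whose errors were independent between arrays apart from a dye effect. That run cannot show how variation shared by the arrays of a slide affects the p-values.

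The series calls the slides biological replicas. Same-numbered arrays share a slide per the labels, and their deviations from the mutant means correlated at a median of 0.50 over 84 pairs (-0.27 to 0.91). Pairs from different slides had -0.30, but subtracting the mean of a mutant's 3 arrays by itself pushes these below 0. Dye was not taken out first, so slide and dye are mixed in these correlations. Because of the 0.50, a replicate block was run. The other alternatives were leaving out slides or single arrays, the opposite direction of slide 2, loess on brightness (span 0.4), quantile normalization, other centring, brightness filter, treatment of low values, 1 probe, the arrays of 1 reference, and no dye term. The fits on 1 probe and without M1 replicate 1 were chosen after seeing the data. The genes and lists were chosen with earlier results of these data known. Array values are given for called genes, for the 2 highest and 2 lowest genes of each mutant with 1 sign on 3 arrays, and for the regulators. Others named with arrays were chosen after their values were seen.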

Additional observations from a re-analysis of the deposited data

Results flagged for a closer look

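As means of 2 probes, ZIP2 lay above 0 on all 3 arrays of PG-353 and below 0 on all 3 of PR-164. The gap between its fitted ratios was 1.58 on the log2 scale. SPO21 lay above 0 on all 3 arrays of M1 and below 0 on all 3 of PG-259, a gap of 0.97. The probes of ZIP2 had opposite signs on replicates 1 and 2 of both its mutants. Those of SPO21 had opposite signs on M1 replicate 1 and PG-259 replicate 3. Each pair of mutants has different references, and neither difference was tested. Both genes were given for the size of these ratios, so such contrasts of sign follow in part from the choice.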

How the results depend on the processing

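Of the counts of called genes recomputed under the alternatives, 146 stayed within 1.5 times the reported one and 29 did not. Of the values of single genes, 424 kept direction and call, 19 lost the call and 7 turned sign. Among these values only HOP2 and SMA2 in PR-164 and SMA2 in the mean were called as reported, so the 19 losses are theirs. SMA2 in the mean stayed called under 9 of 14 alternatives. Every other value had no call to lose, and came from a gene whose 3 arrays already shared a direction. The 424 therefore do not measure how stable the calls are. Of the medians over the 45 genes, 117 moved by less than the spread between replicates and 26 by more, of which 13 were in PY-231 (-0.034 to 0.057), 6 in PR-338 (0.040 to 0.21), 5 in PG-259 (-0.071 to 0.14), 1 in PR-438 (0.016 after loess) and 1 in the mean of 8 (-0.18 with low values set). In PR-164 the count of 2 was 0 to 2 with 1 slide left out, and 1 after loess (HOP2) and after quantile normalization (SMA2). With slide 2 turned it was 1, but that was CDA2 at -1.34 (adjusted p = 0.0345), and neither HOP2 nor SMA2 was called. The count in PR-164 was 0 without the dimmest 25% of genes (which leaves 2 of the 45), with values at or below 0 set to the lowest ratio, with arrays of the same reference only, without a dye term and with the second probe only. In M1 the count of 0 was 0 to 1 with 1 slide left out (RED1 at -0.99 without slide 2), 3 with slide 2 turned, 1 with the second probe only (SPO22 at -2.70) and 1 without M1 replicate 1. With slide 2 turned it was 1 in PG-259 and 1 in PG-132. In the mean of 8 mutants the count of 1 was 5 with the replicate block, 0 to 11 with 1 slide left out, 2 without PY-231 replicate 1, 12 with slide 2 turned, 3 after loess, 3 after quantile normalization, 0 without the dimmest 25%, 2 without a dye term, 4 with the first and 3 with the second probe only, and 2 without M1 replicate 1. The replicate block changed no other count of calls among the 45 genes. Over all genes it moved the calls from 12 to 0 in PR-438, 5 to 2 in PR-338, 20 to 10 in PR-164, 10 to 21 in M1, 2 to 0 in PG-259 and 9 to 0 in PG-132. Values that turned sign were SMA2 in PR-164 (-2.37) and in the mean (-0.54) and MER1 in PR-338 (-0.58) with low values set to the lowest ratio, SPR3 in M1 (0.40) and DIT1 in PG-353 (0.025) with slide 2 turned, SMA1 in PY-231 with the second probe only (-0.069) and SPS100 in PG-259 with the first probe only (-0.017). HOP2 and SMA2 in PR-164 were each called under 7 of 15 alternatives, at log2 ratios of -1.75 to -0.68 and -2.37 to 3.19. The causes were not tested, other than that fewer arrays or genes enter some fits. The median of a gene's 2 probes equals their mean, so that alternative gave no other value. For 43 of the 45 genes the spots were among the dimmest 25%.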
